A study of Mus musculus with 6 samples.

Results

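The genes described here are 30 members of cholesterol synthesis and sterol regulation, whose Ensembl IDs, among the 49671 genes of the count table, map to their symbols in GENCODE M21. They comprise 18 enzymes that build cholesterol from acetyl-CoA, 5 regulators, 4 genes of sterol transport and uptake, 2 sterol acyltransferases and Rdh11. All 30 passed the filter on low counts, with 16089 genes tested in all. The RNA came from whole livers of 6 male mice with a C57BL/6J background. The 3 control mice (WT in the labels, SHMT2fl/fl in the methods) carried a floxed Shmt2 allele in which loxP sites flank exons. The 3 knockout mice (KO, SHMT2HKO) carried the same allele with the Albumin-Cre transgene, whose promoter is active in hepatocytes. The design targets hepatocytes, and Shmt2 in other liver cells was not measured separately here. For 18 weeks before harvest, at 22 weeks of age, mice of both genotypes ate AMLN food, a fatty liver diet with added cholesterol and fructose. The diet began at 4 weeks of age, and each library is called a mouse here. The comparison asks how the liver transcriptome differs when hepatocytes lack SHMT2, the mitochondrial serine hydroxymethyltransferase of one-carbon metabolism.

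Cholesterol synthesis runs from acetyl-CoA through mevalonate and isoprenoid pyrophosphates to squalene, which is oxidised and closed into lanosterol and then trimmed to cholesterol. The transcription factor SREBP-2, encoded by Srebf2, turns on the genes of this pathway. When sterols are plentiful, the INSIG proteins hold SREBP-2 and its escort SCAP in the endoplasmic reticulum, and when sterols are low SCAP carries SREBP-2 to the Golgi for cleavage. Dietary cholesterol is known to lower the synthesis of cholesterol in the liver through this circuit, and surplus cholesterol is stored as esters or leaves the cell.

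Gene counts ranged from 23090837 to 34089722 per library, and the first principal component, with 64.8% of the variance, separated the genotypes. The second component, with 19.4%, set KO mouse 1 apart from the other KO mice. Levels are given as counts-per-million values (CPM) of a library size scaled by the trimmed mean of M-values (TMM), and 3 counts, taken as the floor, stand for 0.0734 to 0.152 CPM. Shmt2 was at 94.6, 109 and 93.9 CPM in WT mice 1 to 3 and at 24.9, 28.3 and 19.3 CPM in KO mice 1 to 3. The 2 genotypes did not overlap for Shmt2, and its log2 fold change of KO over WT was -2.04 ± 0.16 (SE; edgeR quasi-likelihood test, Benjamini-Hochberg adjusted p = 0.000639). An exact permutation test, two-sided, gave p = 0.1, the smallest that 3 mice against 3 can give. The hepatocyte markers were all detected, and their summed level was 57474 to 71374 CPM in WT and 67219 to 102429 CPM in KO livers. These ranges overlapped, and by WT means Alb had 37545 of 62553 CPM of the sum. Alb itself did not pass (edgeR, Benjamini-Hochberg adjusted p = 0.132).

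The enzymes of cholesterol synthesis were higher in the KO livers at most steps of the pathway. Of the 18 enzymes, 14 rose in KO livers, at an adjusted p under 0.05, and 0 fell (0 also at an unadjusted p under 0.05 and in DESeq2 and limma-voom). Over the whole table edgeR called 29.0% of genes, 12.5% higher and 16.5% lower. The median log2 fold change of the 18 enzymes was 1.18, with a range from 0.27 to 1.97, against 0.03 over all genes tested. All 18 values were above 0, as were 51.9% of all genes, except that Mvk went below 0 when libraries were scaled by their size alone or by the spike-in RNAs. The KO mice lay entirely above the WT mice for 14 of the 18 enzymes, against 21.9% of all genes tested. Outside synthesis, and beside the same whole-table shares, 4 of 12 genes rose, 1 fell and 7 did not pass, and their median was 0.28. Without KO mouse 2, 12 of the 18 enzymes were called higher, against 6.72% of genes over the whole table (11.3% lower). Without WT mouse 2 the number was 7, against 5.20% of genes over the whole table (10.2% lower), and without WT mouse 3 it was also 7, against 4.93% (9.92% lower). Pmvk, Idi1, Msmo1, Nsdhl, Ebp, Sc5d and Dhcr7 lost their call without either of these WT mice.

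**Figure D1:**
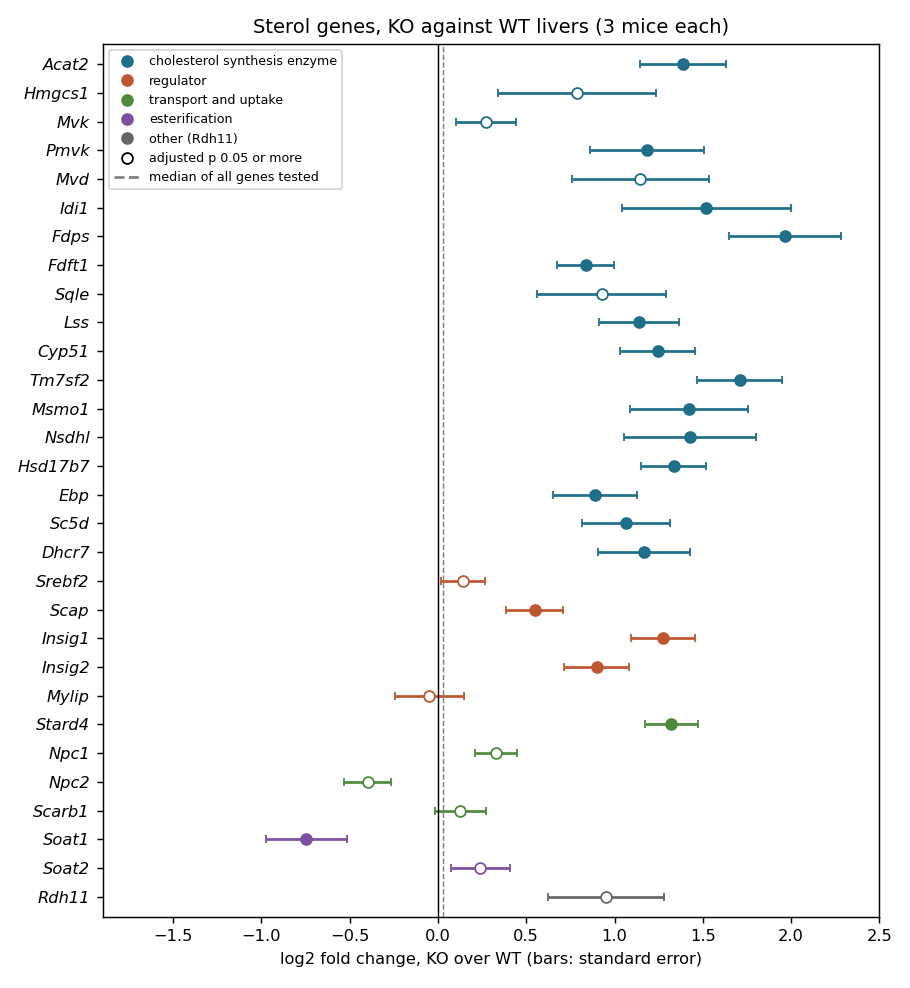
Log2 fold change of KO over WT livers for the 30 genes, in pathway order, from the edgeR fit with 3 mice a group; bars are standard errors, filled points passed an adjusted p of 0.05, and the dashed line is the median of all genes tested. The 18 enzymes lie between 0.27 and 1.97 and Soat1 is the lowest gene at -0.74; with spike-in scaling Mvk, Srebf2, Scap, Npc1, Scarb1 and Soat2 lay below 0.

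The pathway is classically regulated through its promoters. SREBP-2 binds sterol regulatory elements and works together with NF-Y, which binds CCAAT boxes. Promoter windows from RefSeq, on GRCm38.p6, run from 250 bases before to 50 bases after each start and matched 23 of the 30 genes, in 30 windows. Fdps, Fdft1, Sqle, Stard4, Npc1, Scarb1 and Soat2 were not matched. The 250 bases before the start are printed 5′ to 3′ on the gene's strand for 7 genes. Hmgcs1 (chr13:119690101-119690350, plus strand), Msmo1 (chr8:64733579-64733828, minus strand) and Srebf2 (chr15:82147019-82147268, plus strand) hold the letters TCACNCCA, and of these Hmgcs1 alone holds the full sterol element TCACNCCAC. Cyp51 (chr5:4104698-4104947, minus strand), Hsd17b7 (chr1:169969206-169969455, minus strand) and Insig1 (chr5:28071162-28071411, plus strand) are genes that rose without either in the window, and Soat1 (chr1:156474329-156474578, minus strand) is the gene that fell. Capitals mark CCAAT or its reverse ATTGG and the letters TCACNCCA or TCACNCCAC, on either strand.
Hmgcs1: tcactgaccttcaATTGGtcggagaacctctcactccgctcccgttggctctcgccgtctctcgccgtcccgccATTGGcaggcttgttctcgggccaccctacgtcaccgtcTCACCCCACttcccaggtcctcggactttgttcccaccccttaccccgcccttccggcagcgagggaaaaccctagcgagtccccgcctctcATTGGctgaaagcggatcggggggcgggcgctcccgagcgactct
Msmo1: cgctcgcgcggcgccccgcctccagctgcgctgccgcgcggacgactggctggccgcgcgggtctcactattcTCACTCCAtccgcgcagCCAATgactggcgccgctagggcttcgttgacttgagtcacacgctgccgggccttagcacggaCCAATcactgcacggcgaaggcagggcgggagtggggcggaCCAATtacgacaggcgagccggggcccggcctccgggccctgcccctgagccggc
Srebf2: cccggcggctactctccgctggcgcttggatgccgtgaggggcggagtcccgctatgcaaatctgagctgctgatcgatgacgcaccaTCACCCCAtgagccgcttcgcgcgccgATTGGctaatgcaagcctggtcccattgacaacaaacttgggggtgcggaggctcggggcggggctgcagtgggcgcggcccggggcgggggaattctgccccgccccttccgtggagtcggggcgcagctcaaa
Cyp51: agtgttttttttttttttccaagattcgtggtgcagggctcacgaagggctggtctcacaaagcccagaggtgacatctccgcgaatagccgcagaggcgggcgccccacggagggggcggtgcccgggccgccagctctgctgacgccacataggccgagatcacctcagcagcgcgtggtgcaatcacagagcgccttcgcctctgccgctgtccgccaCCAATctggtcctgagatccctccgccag
Hsd17b7: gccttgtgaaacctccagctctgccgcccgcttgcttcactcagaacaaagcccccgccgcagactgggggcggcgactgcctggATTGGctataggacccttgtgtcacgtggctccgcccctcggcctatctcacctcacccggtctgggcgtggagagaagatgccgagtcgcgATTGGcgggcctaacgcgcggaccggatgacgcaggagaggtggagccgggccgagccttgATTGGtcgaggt
Insig1: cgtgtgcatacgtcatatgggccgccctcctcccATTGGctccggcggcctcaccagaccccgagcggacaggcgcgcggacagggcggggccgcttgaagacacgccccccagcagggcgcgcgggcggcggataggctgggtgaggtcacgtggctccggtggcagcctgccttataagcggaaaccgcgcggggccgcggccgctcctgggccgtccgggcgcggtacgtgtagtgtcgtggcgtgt
Soat1: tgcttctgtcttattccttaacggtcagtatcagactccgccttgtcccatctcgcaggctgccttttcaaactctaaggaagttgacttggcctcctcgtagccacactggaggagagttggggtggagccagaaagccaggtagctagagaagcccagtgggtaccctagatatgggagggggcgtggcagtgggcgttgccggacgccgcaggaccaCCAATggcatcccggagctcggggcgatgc

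CCAAT was in the windows of 21 of the 23 genes (91.3%), against 42.3% of the tested genes that have a window and 41.1% of all 27025 genes. It was in 14 of 15 enzymes and in 7 of 8 others, and Acat2 and Scap had no CCAAT. Soat1, which fell, and Srebf2, which did not pass the test, each had 1 CCAAT. Of the genes that rose, Pmvk, Cyp51, Lss, Tm7sf2, Insig1 and Sc5d also had 1 each, and Idi1, Ebp and Dhcr7 had 2. Msmo1, Hsd17b7 and Insig2, which rose, had 3, and Nsdhl, which rose, had 4. Among those that did not pass, Mvd, Npc2 and Rdh11 had 2, and Mylip, Hmgcs1 and Mvk had 3, 4 and 5. Where a gene had several windows, the window with the most is given. The sterol element TCACNCCAC occurred in 1 of the 23 genes, Hmgcs1, 137 to 129 bases before the start, and in 1.51% of tested genes with a window. Its first 8 letters, TCACNCCA, a choice made after the promoters were seen, occurred also in Msmo1 and Srebf2, which makes 3 genes against 4.72% of tested genes. The GC box GGGCGG was in 21 of 23 genes against 64.7% of tested genes. The E-box CACGTG was in 6 of 23 genes against 11.2%. These are letter matches in a short window and not measured binding.

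The first steps make mevalonate and its phosphates. Acat2, the cytosolic thiolase that joins 2 molecules of acetyl-CoA, was at 34, 33.1 and 34.9 CPM in WT mice 1 to 3 and at 65.1, 128 and 73.5 CPM in KO mice 1 to 3. Its log2 fold change was 1.39 ± 0.24 (edgeR, Benjamini-Hochberg adjusted p = 0.0054). Acat2 lies on chr17:12942890-12960747 beside its paralog Acat3, looked up because it is a paralog, which was also higher (log2 fold change 0.60, edgeR, Benjamini-Hochberg adjusted p = 0.0162), and how reads were shared between the paralogs was not tested. Hmgcs1, the HMG-CoA synthase, was at 106, 54.3 and 94.6 CPM in WT and 72.2, 244 and 125 CPM in KO mice. KO mouse 1 was within the WT range for Hmgcs1 and KO mouse 2 stood far above it, and the log2 fold change of 0.79 ± 0.45 did not pass (edgeR, Benjamini-Hochberg adjusted p = 0.231) and was 0.22 without KO mouse 2.

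Mvk, mevalonate kinase, was the enzyme with the smallest difference, at 11.2, 11.1 and 12.7 CPM in WT and 12.7, 17.3 and 12.4 CPM in KO mice. Its log2 fold change was 0.27 ± 0.17 (edgeR, Benjamini-Hochberg adjusted p = 0.262). Pmvk, the next kinase, was at 13.2, 14.8 and 15.3 CPM in WT and 20.5, 52.5 and 25.6 CPM in KO mice, and rose by 1.18 ± 0.32 on the log2 scale (edgeR, Benjamini-Hochberg adjusted p = 0.0283). The decarboxylase Mvd was at 5.77, 4.4 and 6.26 CPM in WT and 7.81, 20.8 and 8.03 CPM in KO mice. Every KO mouse was above every WT mouse for Mvd, but KO mouse 2 was far from the other KO mice and the log2 fold change of 1.15 ± 0.39 did not pass (edgeR, Benjamini-Hochberg adjusted p = 0.0581).

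The isoprenoid steps held the largest difference. Fdps, the farnesyl pyrophosphate synthase, whose product also feeds protein prenylation, was at 47.4, 32.8 and 34.4 CPM in WT and 86, 213 and 150 CPM in KO mice. This is a 3.91-fold higher level in KO livers, with a log2 fold change of 1.97 ± 0.32 (edgeR, Benjamini-Hochberg adjusted p = 0.00422), and it was 1.63 without KO mouse 2. Idi1, the isopentenyl pyrophosphate isomerase, was at 5.87, 2.26 and 4.49 CPM in WT and 5.14, 16.8 and 14.6 CPM in KO mice. KO mouse 1 lay inside the WT range for Idi1, and its log2 fold change of 1.52 ± 0.48 was close to the threshold (edgeR, Benjamini-Hochberg adjusted p = 0.0484), and Idi1 was called in 5 of the 16 alternatives. It was lost with each mouse left out except KO mouse 1, with adjusted p from 0.0667 to 0.138. Fdft1, the squalene synthase and first enzyme committed to sterols, was at 43.2, 44.9 and 45.2 CPM in WT and 68.8, 100 and 69.3 CPM in KO mice, a rise of 0.84 ± 0.16 on the log2 scale (edgeR, Benjamini-Hochberg adjusted p = 0.00744). Ctsb, whose exons overlap 774 bases of Fdft1 exons on the opposite strand, had a log2 fold change of 0.02, and whether reads were counted by strand is not given in the sources used here. Hmgcs1, Idi1, Fdps, Lss, Cyp51, Scap and Npc1 also share exon bases with another annotated gene, and their counts are uncertain to that extent.

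Squalene is then oxidised and closed into lanosterol. Sqle, the squalene monooxygenase, was at 18.1, 12.7 and 10.4 CPM in WT and 15.6, 41.4 and 21.6 CPM in KO mice. The groups overlapped for Sqle through KO mouse 1, and its log2 fold change was 0.93 ± 0.37 (edgeR, Benjamini-Hochberg adjusted p = 0.0944). Lss, lanosterol synthase, was at 22.1, 17.7 and 19 CPM in WT and 31.2, 58.9 and 39.4 CPM in KO mice, and rose by 1.14 ± 0.23 on the log2 scale (edgeR, Benjamini-Hochberg adjusted p = 0.00838).

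From lanosterol onwards all 8 enzymes rose in KO livers, without overlap of the genotypes. Over all genes tested 12.5% were called higher, and the KO mice lay entirely above the WT mice for 21.9%. Msmo1, Nsdhl, Ebp, Sc5d and Dhcr7 lost their call with some mice left out, as given above. Cyp51, the lanosterol demethylase, was at 40.4, 28.6 and 28.5 CPM in WT and 58.2, 94.5 and 78.2 CPM in KO mice, with a log2 fold change of 1.24 ± 0.21. The sterol reductase Tm7sf2 was at 32.3, 38 and 38.1 CPM in WT and 109, 164 and 81.5 CPM in KO mice, a 3.27-fold higher level and the second largest difference of the pathway, at 1.71 ± 0.24 (edgeR, Benjamini-Hochberg adjusted p = 0.00249). Vps51, which shares 532 exon bases with Tm7sf2, had a log2 fold change of -0.14. Msmo1, Nsdhl and Hsd17b7 act one after another to remove the methyl groups at carbon 4. Msmo1 was at 25.5, 21.2 and 19.7 CPM in WT and 39.6, 95.9 and 42.6 CPM in KO mice. Nsdhl was at 17.2, 13.8 and 13.3 CPM in WT and 21.8, 65.7 and 31.9 CPM in KO mice. Hsd17b7 was at 16.6, 13.7 and 15.8 CPM in WT and 29.4, 47.4 and 39.9 CPM in KO mice. All 3 demethylation enzymes were highest in KO mouse 2, and their log2 fold changes were 1.42 ± 0.33, 1.43 ± 0.37 and 1.34 ± 0.18 in that order. The KO mice differed less among themselves in Hsd17b7, which had the smallest adjusted p of the pathway (edgeR, Benjamini-Hochberg adjusted p = 0.00222), than in Msmo1 (adjusted p = 0.0176) and Nsdhl (adjusted p = 0.026).

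The last steps rearrange and reduce the sterol ring. Ebp, the sterol isomerase, was at 107, 120 and 133 CPM in WT and 249, 274 and 143 CPM in KO mice, with a log2 fold change of 0.89 ± 0.24. KO mouse 3 was close to the highest WT mouse for Ebp, and its call (edgeR, Benjamini-Hochberg adjusted p = 0.0251) was lost without KO mouse 2 (0.0822) and without WT mouse 1 (0.0954), 2 (0.0818) or 3 (0.0652). Ebp was called in 9 of the 16 alternatives. Sc5d, the sterol desaturase, was at 220, 136 and 203 CPM in WT and 303, 511 and 355 CPM in KO mice, with a log2 fold change of 1.06 ± 0.25. Dhcr7, which makes cholesterol from its last precursor in one branch of the pathway, was at 40, 29 and 29.9 CPM in WT and 56.1, 106 and 59.9 CPM in KO mice, with a log2 fold change of 1.17 ± 0.26. Per kilobase of exon, Ebp was the most abundant enzyme transcript, at 51.9 CPM per kilobase in WT and 96.1 in KO livers, and Idi1 the least, at 1.2 and 3.48.

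The KO mice did not show the rise to the same degree. KO mouse 2 was the highest of the 3 KO mice for all 18 enzymes, whereas it was the highest for 28.6% of 15903 genes, and KO mouse 1 was the lowest for 15 of the 18. The summed level of the 18 enzymes was 806, 629 and 758 CPM in WT mice 1 to 3 and 1252, 2251 and 1372 CPM in KO mice 1 to 3. The sums did not overlap between genotypes, and the median enzyme was 0.69, 1.66 and 0.94 above the WT mean on the log2 scale in KO mice 1, 2 and 3. All 18 enzymes were above every WT mouse in KO mouse 2, 17 in KO mouse 3 and 14 in KO mouse 1. The shares of all genes above every WT mouse in each KO mouse, or lowest in KO mouse 1, were not computed. The library of KO mouse 2 also had the fewest genes with a count, 20936 against 21847 to 24340 in the other 5, and the largest share of counts in its 10 most abundant genes, 19.6% against 14.2% to 17.4%. The part of these library features in the enzyme levels was not tested. Rdh11, a retinol dehydrogenase that was counted with the sterol genes, followed the same order, at 23.6, 21.4 and 20.4 CPM in WT and 26.4, 68.4 and 31.9 CPM in KO mice (log2 fold change 0.95 ± 0.33; edgeR, Benjamini-Hochberg adjusted p = 0.0646).

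**Figure D2:**
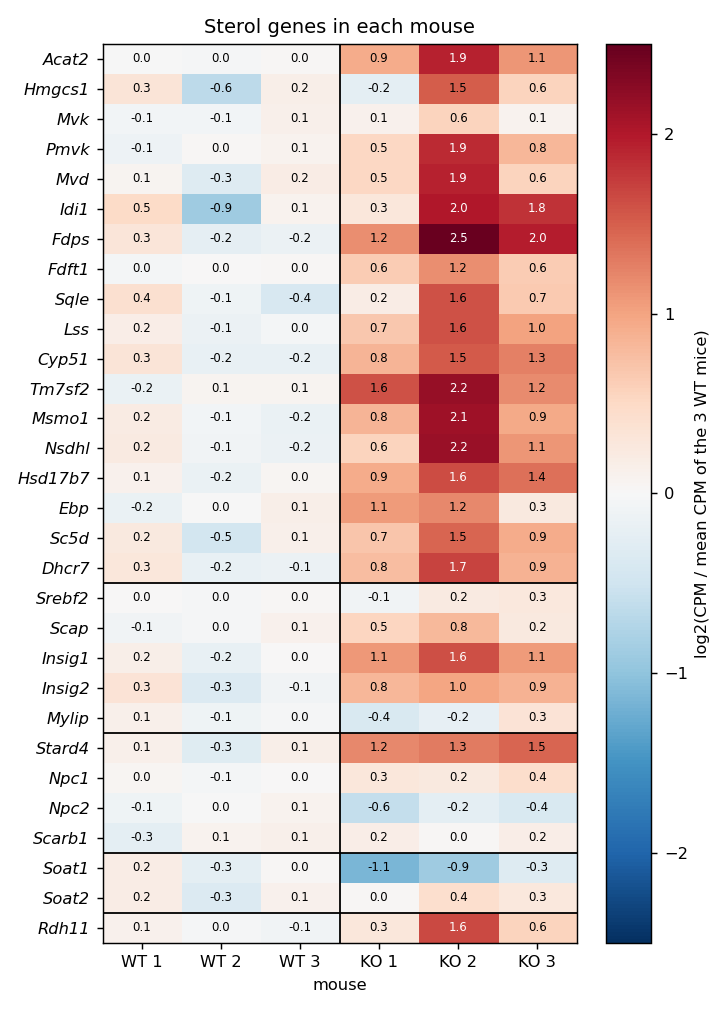
Log2 ratio of each mouse's CPM to the mean of the 3 WT mice, for the 30 genes (rows; lines separate synthesis, regulators, transport, esterification and Rdh11) in 6 livers (columns). The KO mouse 2 column is the highest of the KO columns for each of the 18 enzymes, with a median of 1.66 against 0.69 and 0.94 in KO mice 1 and 3.

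Among the regulators, the transcripts of the retention proteins rose and that of the transcription factor did not pass the test. Srebf2 was at 51, 50.2 and 51.7 CPM in WT and 47.9, 59.4 and 61.2 CPM in KO mice, with a log2 fold change of 0.14 ± 0.12 (edgeR, Benjamini-Hochberg adjusted p = 0.435). The KO mice lay on both sides of the WT mice for Srebf2. Insig1, which is itself a known target of SREBP-2, was at 97.7, 77.7 and 88.7 CPM in WT and 187, 268 and 183 CPM in KO mice, a rise of 1.27 ± 0.18 on the log2 scale (edgeR, Benjamini-Hochberg adjusted p = 0.00258). Insig2, the second retention protein, was at 152, 94.6 and 112 CPM in WT and 213, 239 and 218 CPM in KO mice, a rise of 0.90 ± 0.18 (edgeR, Benjamini-Hochberg adjusted p = 0.00944). The genotypes did not overlap for either Insig gene, and the KO mice were closer together in Insig2 than in Insig1. Scap was at 87.6, 92 and 102 CPM in WT and 135, 165 and 111 CPM in KO mice, with a log2 fold change of 0.55 ± 0.16 (edgeR, Benjamini-Hochberg adjusted p = 0.0362). Scap was called in 8 of the 16 alternatives, and its call was lost without KO mouse 2 (0.105) and without WT mouse 1 (0.124), 2 (0.116) or 3 (0.0839), and with upper-quartile scaling (0.0635). Mylip, the ubiquitin ligase that removes lipoprotein receptors and is a target of the liver X receptors, was at 20.2, 17.3 and 18.4 CPM in WT and 14.3, 16.1 and 23.7 CPM in KO mice, and the groups overlapped (log2 fold change -0.05 ± 0.19).

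Ratios of 2 genes in the same library do not depend on how libraries are scaled. The ratio of Insig1 to Srebf2 was 1.73 ± 0.183 (SD, n = 3) in WT and 3.8 ± 0.768 (SD, n = 3) in KO livers. For Insig2 to Srebf2 it was 2.35 ± 0.571 in WT and 4.01 ± 0.445 in KO livers, and for Fdps to Srebf2 it was 0.75 ± 0.156 and 2.61 ± 0.905. The genotypes did not overlap in these ratios. The summed enzymes over Srebf2 gave 15.8, 12.5 and 14.7 in WT mice 1 to 3 and 26.1, 37.9 and 22.4 in KO mice 1 to 3. Insig1 over Insig2 was 0.751 ± 0.0963 in WT and 0.948 ± 0.153 in KO livers. In the 6 gene pairs compared, the KO mice were all above the WT mice, and each exact permutation test, two-sided, gave p = 0.1, also after Benjamini-Hochberg adjustment, the smallest p that this design allows. Insig1, Insig2, Stard4 and Fdps were called higher and Soat1 lower in these same data, so the ratios are descriptions and not separate support. The share of other gene pairs that separate the genotypes was not computed.

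Of the 4 genes of transport and uptake, 1 rose, against 12.5% of all genes tested. Stard4, a soluble carrier of cholesterol between membranes and a known SREBP-2 target, was at 30.4, 22.6 and 30.7 CPM in WT and 63.8, 68.9 and 76.2 CPM in KO mice. It rose by 1.32 ± 0.15 on the log2 scale (edgeR, Benjamini-Hochberg adjusted p = 0.00127), the smallest adjusted p of the 30 genes. KO mouse 3, not KO mouse 2, was the highest for Stard4, and the log2 fold change was 1.33 without KO mouse 2. The ratio of Stard4 to Srebf2 was 0.546 ± 0.0832 (SD, n = 3) in WT and 1.25 ± 0.0861 (SD, n = 3) in KO livers. Scarb1, the receptor that takes up HDL cholesterol, was at 172, 219 and 224 CPM in WT and 230, 210 and 230 CPM in KO mice, with overlap (log2 fold change 0.13 ± 0.14).

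Npc1 and Npc2 hand cholesterol out of the lysosome, the first as a membrane protein and the second as a soluble one, and their values lay on opposite sides. Npc1 was at 142, 133 and 138 CPM in WT and 168, 163 and 188 CPM in KO mice, and Npc2 was at 145, 155 and 166 CPM in WT and 103, 131 and 120 CPM in KO mice. The KO mice were all above WT for Npc1 and all below WT for Npc2, a separation in the second direction that 25.0% of all genes tested showed. Neither passed the threshold, with log2 fold changes of 0.33 ± 0.12 (edgeR, Benjamini-Hochberg adjusted p = 0.0707) and -0.40 ± 0.13 (adjusted p = 0.0559), though DESeq2 called Npc1 higher and Npc2 lower. No other alternative called Npc1, and 3 others called Npc2 lower.

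Of the 2 sterol acyltransferases, which store cholesterol as esters, 1 fell, against 16.5% of all genes tested. Soat1, the form found in most cells and in macrophages, was at 16.8, 12.5 and 15.2 CPM in WT and 6.71, 7.95 and 11.8 CPM in KO mice. It was the only one of the 30 genes to fall, by a log2 fold change of -0.74 ± 0.23 (edgeR, Benjamini-Hochberg adjusted p = 0.0418), without overlap. That call was lost without any of the WT mice, KO mouse 1 or KO mouse 2, with adjusted p from 0.0607 to 0.143. Soat2, the form of hepatocytes and enterocytes, was at 60.3, 42.1 and 57.4 CPM in WT and 54, 71 and 63.7 CPM in KO mice, with overlap and a log2 fold change of 0.24 ± 0.17 (edgeR, Benjamini-Hochberg adjusted p = 0.322). The ratio of Soat2 to Soat1 was 3.59, 3.38 and 3.78 in WT mice 1 to 3 and 8.06, 8.93 and 5.38 in KO mice 1 to 3.

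With TMM scaling, markers of other liver cells also differed, and in whole liver fewer cells of a type and less RNA per cell cannot be told apart. The counts of called markers stand beside 12.5% of all genes tested called higher and 16.5% lower. Of 8 macrophage markers 3 fell and 2 rose, and their summed level was 534 to 739 CPM in WT and 425 to 519 CPM in KO livers. Of 7 stellate cell and fibroblast markers 4 fell and 1 rose, with sums of 979 to 1025 CPM in WT and 216 to 573 CPM in KO livers. All 5 cholangiocyte markers fell, from sums of 951 to 1181 CPM to 128 to 245 CPM. Single genes weighed heavily in these sums. By WT means, Spp1 had 871 of 1045 CPM of the cholangiocyte sum, and Lyz2 had 385 of 666 CPM of the macrophage sum. Col1a1 and Col3a1 had 382 and 454 of 995 CPM of the stellate cell and fibroblast sum. The macrophage markers that rose were Clec4f and Timd4, and the stellate cell and fibroblast marker that rose was Reln. Of 6 lymphocyte markers 3 fell, with sums of 12.2 to 14.7 CPM in WT and 2.93 to 4.01 CPM in KO livers, and of 6 endothelial markers 2 rose, with sums of 160 to 185 CPM and 227 to 266 CPM. Of 8 hepatocyte markers 2 rose, beside the same 12.5%. No marker was at 0 in any library, and the part of these cells in the values of Soat1, Npc2 or the enzymes was not tested.

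**Figure D3:**
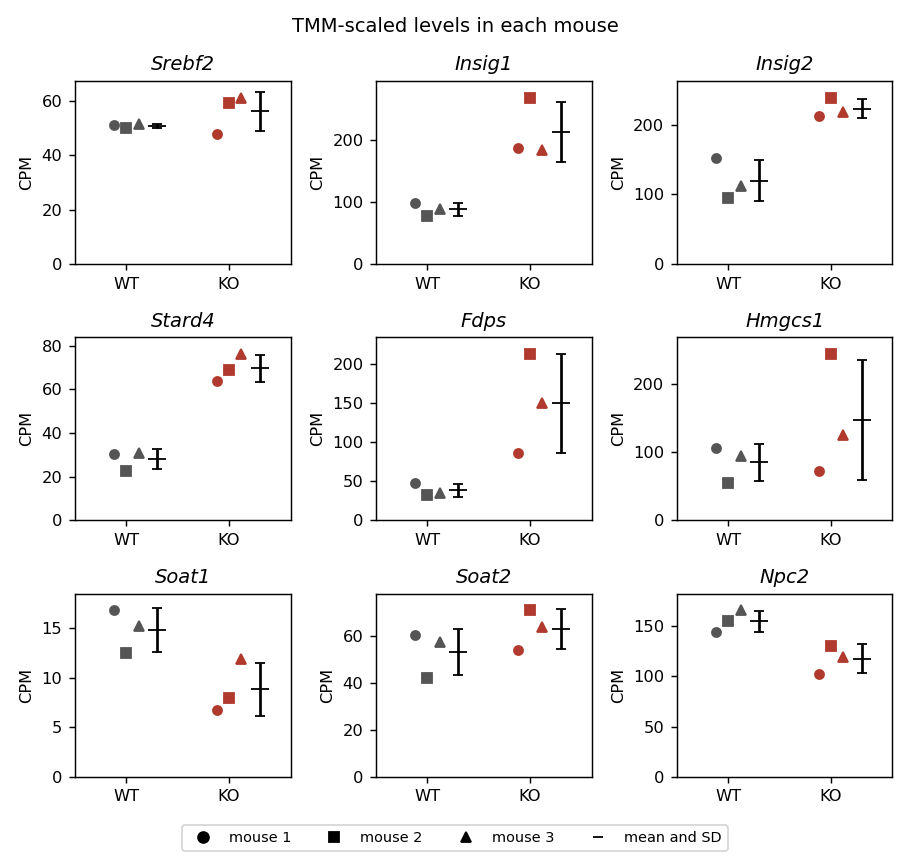
CPM of 9 sterol genes in each of 3 WT and 3 KO mice (symbols mark mouse numbers, which were not taken to pair the genotypes, bars are mean and SD, and axes start at 0). KO values lie above WT for Insig1, Insig2, Stard4 and Fdps and below WT for Soat1 and Npc2, while Srebf2, Hmgcs1 and Soat2 overlap.

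A wider list of 24 sterol genes, which were not among the 30, had 3 called higher, 4 lower and 17 not passing, near the 12.5% and 16.5% of all genes tested, with a median log2 fold change of 0.08. Nothing is read from these counts, and the genes named are given for their own values. Nr1h3, which encodes the sterol-sensing liver X receptor alpha, rose from 94.7, 106 and 110 CPM in WT to 198, 178 and 138 CPM in KO mice (log2 fold change 0.73 ± 0.16; edgeR, Benjamini-Hochberg adjusted p = 0.0119). Tmem97, the sigma-2 receptor, rose by 0.58 ± 0.18 on the log2 scale (edgeR, Benjamini-Hochberg adjusted p = 0.0447). Its log2 fold change was 0.35 without KO mouse 2, where the call was lost. Abcg1, a cholesterol exporter and target of the liver X receptors, was at 36.1, 35 and 38.4 CPM in WT and 14.3, 15.8 and 21.5 CPM in KO mice (log2 fold change -1.09 ± 0.16; edgeR, Benjamini-Hochberg adjusted p = 0.00305). Gramd1b, which carries cholesterol from the plasma membrane to the endoplasmic reticulum, was at 24.7, 31 and 23.9 CPM in WT and 10.8, 8.05 and 8.9 CPM in KO mice (log2 fold change -1.52 ± 0.17; edgeR, Benjamini-Hochberg adjusted p = 0.00122). Rnf145, a ubiquitin ligase of the endoplasmic reticulum, had a log2 fold change of -0.52 ± 0.15. Abcg1 and Gramd1b were called lower in all 16 alternative fits, and Nr1h3 was called in 13 of them, Rnf145 in 10 and Tmem97 in 7.

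The scaling of the libraries changed how many of the genes were called. Added spike-in RNAs (ERCC) made up 1.35% to 2.75% of counts, and the median log2 fold change over all genes was 0.03 with TMM, -0.40 with library size alone and -0.69 with spike-in scaling. The median of the 18 enzymes was above that of all genes by 1.15, 1.12 and 1.09 in the same order. With DESeq2 size factors in edgeR 18 of the 30 genes were called higher and 1 lower, against 13.0% and 16.1% over the whole table, and with upper-quartile scaling 16 and 2, against 9.08% and 18.9%. With library size alone 9 of the 30 genes were called higher and 2 lower, against 3.35% and 30.6% over the whole table. With spike-in scaling edgeR called 0 of the 30 in either direction, 1 higher and 2 lower at an unadjusted p under 0.05, while 0.665% of all genes were called higher and 17.1% lower. With spike-in scaling 17 of the 18 enzymes were still above 0, with a median of 0.40. With the replicate number as a block, 15 of the 30 were higher and 0 lower (2 at an unadjusted p under 0.05), against 8.68% and 13.6% of all genes. The study's own cutoff was an unadjusted p under 0.05 with an adjusted p under 0.25, in limma-voom. Applied here to the edgeR fit, it called 22 higher and 2 lower, against 19.5% and 21.8%.

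**Figure D4:**
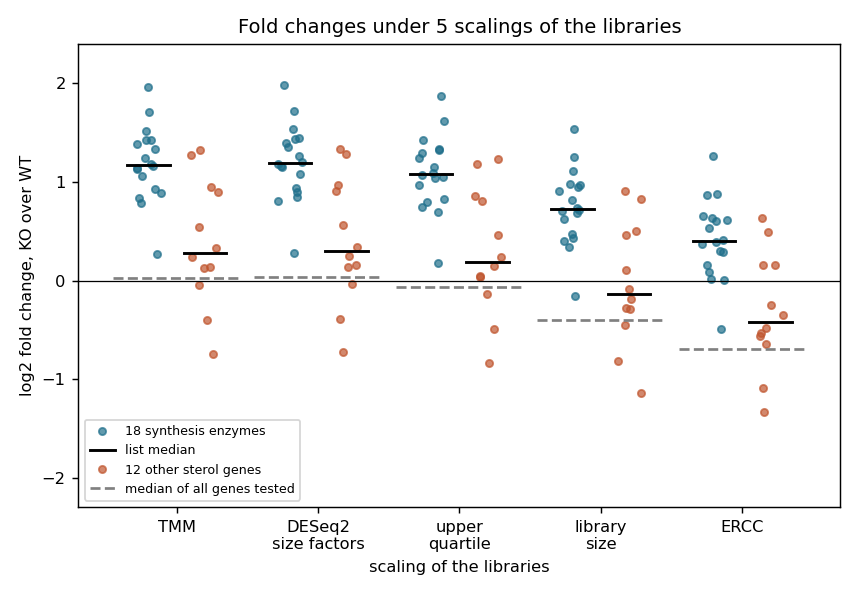
Log2 fold change of KO over WT livers under 5 scalings of the libraries for the 18 enzymes and the 12 other sterol genes (points; black lines are list medians, dashed lines the median of all genes tested). The enzyme median moves from 1.18 with TMM to 0.40 with spike-in RNAs, as the median of all genes moves from 0.03 to -0.69; Mvk is below 0 under library size and spike-in scaling.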

How the data were processed

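Total RNA of 6 livers was sequenced as paired reads. After trimming, the authors mapped the reads to GRCm38 (mm10) plus the spike-in sequences and counted unique hits per gene. The table deposited holds these raw counts. The submitters' processing notes name Trimmomatic 0.36, STAR 2.5.2b, featureCounts and Subread 1.5.2; strand use is not given in the sources used here. The table held 49763 entries, 92 of them spike-in RNAs left out of library sizes and tests, and 259 gene IDs had no entry in the GENCODE M21 annotation.

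Genes were filtered with filterByExpr and tested with edgeR 4.0.16 in R 4.3.3 (TMM, robust quasi-likelihood fit, two-sided, Benjamini-Hochberg over 16089 genes, adjusted p under 0.05). DESeq2 1.42.0, limma-voom (limma 3.58.1) and other scalings, filters, a replicate block and each mouse left out were alternatives, 16 in all. All 30 genes were named, with the 3 largest called rises and falls of a wider list, of which 1 is not reported here; the genes and lists were chosen with earlier results of these data known. In data simulated for KO against WT, edgeR recovered 162 of 200 genes changed 4-fold (81%), and 6.36% of calls were false. The simulation changed only these 200 genes, while 29.0% of genes were called here, so its rates may not carry over. The labels do not state that replicates are separate animals, so p-values cover the spread between these samples. Replicates differed by more than sampling noise.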

Additional observations from a re-analysis of the deposited data

How the results depend on the processing

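Over the 30 genes and 16 alternatives, 383 of the values kept direction and side of the threshold, 70 lost the call, 13 gained one and 14 changed sign. Library size without TMM gave 539 genes higher and 4923 lower over the whole table against 2012 and 2651, and, of the sterol genes, 9 higher (7 enzymes, 2 others) and 2 lower. Upper-quartile scaling gave 1461 higher and 3039 lower over the whole table. Spike-in scaling gave 107 higher over the whole table and 0 sterol genes in either direction by edgeR. The lower count of sterol genes was 2 with upper-quartile scaling, with at least 10 counts in every sample and with DESeq2. It was also 2 with the study's cutoff (p under 0.05 and adjusted p under 0.25) applied to the edgeR fit. That cutoff called 3143 genes higher over the whole table. Leaving out 1 mouse gave 805 to 2521 genes higher and 1621 to 3076 lower over the whole table, 9 to 22 sterol genes higher and 0 to 1 lower, 7 to 17 enzymes higher, and 2 to 5 other sterol genes higher. The sign turned for Mvk (-0.16 with library size, -0.49 with spike-ins), Srebf2 (-0.27, -0.53), Npc1 (-0.088, -0.35), Scarb1 (-0.29, -0.57), Soat2 (-0.19, -0.48) and, with spike-ins only, Scap (-0.24). Mylip turned to 0.01 without WT mouse 1, 0.098 without KO mouse 1 and 0.027 without KO mouse 2, in a range from -0.32 to 0.098 over the mice left out. The cause of these changes was not tested.

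Replicate numbers are shared by the genotypes, and the labels do not say whether they pair the mice. Deviations of same-numbered mice correlated at -0.05, 0.01 and -0.08, and those of other pairs at -0.02 to 0.08. With 3 mice a group these correlations cannot show whether the mice were paired. With the replicate block 15 sterol genes were higher and 0 lower by edgeR (2 lower at an unadjusted p under 0.05), and 1397 genes were higher and 2187 lower over the whole table; DESeq2 without the block gave 2 lower. Shmt2 was called lower in all 16 alternatives. The study has 3 mice a group, and Mvd at 4.4 to 6.26 CPM and Idi1 at 2.26 to 5.87 CPM in WT livers rest on the fewest counts of the enzymes.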
